A study of Mus musculus with 12 samples.

Results

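The positions of the Mirlet7d ChIRP-seq peaks along the mouse chromosomes are described here, with their spacing, width and score. All 4286 peaks of the deposited list were taken, joined by peak name to the deposited annotation, so the members are 4286 of 4286. A single peak on chromosome Y is left out of all densities, which leaves 4285 peaks on 20 chromosomes. In ChIRP-seq, tagged probes that pair with an RNA are used to recover the DNA it sits on, which is then sequenced. The series holds 12 samples from MLE-12 cells, each alone in its group. MLE-12 is a mouse lung epithelial line derived from a tumour of an animal that carried the simian virus 40 large T antigen under the surfactant protein C promoter, so it stands for 1 transformed line. For the ChIRP library, chromatin was incubated with 150 pmol of biotinylated oligonucleotides against mature Mirlet7d at 37 °C for 4 h, and no transfection is described for it, although one of its labels names Mirlet7d as a gain of function. An input library of the same cells belongs to the series but was not analysed here. A Mirlet7d pull-down of RNA, from cells that received 25 nM of the biotinylated microRNA for 48 h, supplies the other readout used below. With 1 library there is no replicate error, and all intervals are exact 95% intervals that cover counting error only. The list carries no read counts, so the depth behind each peak is unknown.

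Let-7 microRNAs are short RNAs best known for repressing messenger RNAs in the cytoplasm through a seed at their 5′ end, and they are abundant in differentiated lung epithelium. Some microRNAs are also found in the nucleus, where they can pair with nascent or non-coding transcripts near genes. A peak in a ChIRP experiment marks DNA that was recovered with the probes, either through the RNA or without it, and no capture with unrelated probes was analysed here.

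The mature strand mmu-let-7d-5p is shown first because its seed letters were searched in the promoters below. Which mature strand of Mirlet7d the probes captured was not determined here. Capitals mark the seed, bases 2 to 8 from the 5′ end.
mmu-let-7d-5p: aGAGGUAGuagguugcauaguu
The seed GAGGUAG is shared by 11 mature names at 13 loci among 1738 mature mouse sequences in the RefSeq table (build GRCm38.p6).

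Promoters of 4 genes with a peak at the transcription start site (TSS) are printed as examples. The first 3 have high-scoring peaks. Nfkb2 has 3 promoters in the table, of which the first is printed, and which of them the peak lies at was not checked. Dnaja3 was picked because its window holds the seed letters, so the 4 windows give no share of matches. Each window runs from 250 bases before to 50 bases after the RefSeq start, 5′ to 3′ on the gene's strand, with RefSeq coordinates of GRCm38.p6. In the first 3, which lie in dense segments of chromosomes 6, 19 and 16, capitals mark CG dinucleotides. In Dnaja3 they mark the letters CTACCTC, which are the seed letters on the other strand.
Sftpb, chr6:72304360-72304659, plus strand: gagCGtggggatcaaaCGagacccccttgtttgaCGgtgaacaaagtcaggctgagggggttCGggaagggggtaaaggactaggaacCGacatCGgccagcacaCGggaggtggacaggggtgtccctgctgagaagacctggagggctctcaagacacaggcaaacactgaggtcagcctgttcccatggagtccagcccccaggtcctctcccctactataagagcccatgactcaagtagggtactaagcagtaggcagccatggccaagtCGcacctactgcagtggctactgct
Nfkb2, chr19:46304487-46304786, plus strand: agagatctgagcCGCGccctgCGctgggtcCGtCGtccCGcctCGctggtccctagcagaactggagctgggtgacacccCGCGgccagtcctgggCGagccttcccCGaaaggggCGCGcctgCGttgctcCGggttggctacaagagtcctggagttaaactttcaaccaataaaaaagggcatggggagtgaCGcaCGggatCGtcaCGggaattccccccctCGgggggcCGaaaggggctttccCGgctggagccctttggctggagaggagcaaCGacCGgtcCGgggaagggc
Morc3, chr16:93831871-93832170, plus strand: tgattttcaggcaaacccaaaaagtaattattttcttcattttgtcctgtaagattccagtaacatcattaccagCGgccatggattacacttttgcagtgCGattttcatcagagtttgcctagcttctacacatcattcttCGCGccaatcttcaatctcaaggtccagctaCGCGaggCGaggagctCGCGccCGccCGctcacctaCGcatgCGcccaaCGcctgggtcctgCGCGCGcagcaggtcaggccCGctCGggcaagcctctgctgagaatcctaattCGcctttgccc
Dnaja3, chr16:4683820-4684119, plus strand: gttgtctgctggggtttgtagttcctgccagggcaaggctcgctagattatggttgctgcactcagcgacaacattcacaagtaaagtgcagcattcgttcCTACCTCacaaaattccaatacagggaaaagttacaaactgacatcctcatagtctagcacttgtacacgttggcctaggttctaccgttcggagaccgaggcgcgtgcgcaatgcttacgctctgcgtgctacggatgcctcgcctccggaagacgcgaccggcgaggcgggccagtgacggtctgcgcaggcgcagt
Sftpb encodes surfactant protein B, a product of alveolar type 2 cells, and its window holds 8 CG dinucleotides. Nfkb2, a subunit of the NF-kappa-B transcription factors, has 25, and Morc3, a nuclear ATPase that binds chromatin, has 20. The peak at Nfkb2 has a score of 130.23 and a centre 3 bases from the TSS, and that at Morc3 has 128.81. The Sftpb peak scores 117.1 over 1934 bp, and the one at Dnaja3, a mitochondrial co-chaperone, scores 48.43.

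Across the whole list, 592 peaks had a centre within 1 kb of a TSS, at 577 genes, of which 462 were found in the promoter table. Every promoter listed for these 462 genes was taken, 588 in all, so alternative promoters without a peak nearby can be among them. The 588 were GC-rich, with a median GC content of 59.7% against 52.7% over all 32851 promoters, and a median of 20 CG dinucleotides against 7. The seed letters GAGGTAG, searched on both strands (CTACCTC on the other), occurred in 17 of the 588, or 2.89% (1.69 to 4.59). Among all promoters of the same length the share was 3.85% (3.65 to 4.06). On chromosomes 6, 8, 11, 16 and 19 the share was 2.96% and on the others 2.73%. None of the first 3 printed windows holds these letters, and a match is a description of letters only.

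Peaks lay mainly on chromosomes 6, 8, 11, 16 and 19. These 5 were singled out because earlier results had shown them to be dense, so the contrast with the other 15 is a description. They hold 2666 peaks, 62.2% (60.7 to 63.7) of the list, on 21.3% of the chromosome length. Their density was 4.75 peaks per Mb (4.57 to 4.93) against 0.781 (0.744 to 0.820) on the others, a ratio of 6.07 (5.71 to 6.46). By chromosome the density was 5.54 per Mb on 19, 5.15 on 8, 5.14 on 11, 4.27 on 6 and 3.94 (3.55 to 4.35) on 16. Chromosomes 19, 8 and 11 have overlapping intervals. Every one of the other 15 lay lower, from 0.270 on X to 0.993 (0.853 to 1.15) on chromosome 2.

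The number of genes does not follow this order. Chromosomes 6, 8, 11, 16 and 19 carry 1.16 times (1.12 to 1.19) as many protein-coding genes per Mb as the others, and 51.6 peaks per 100 protein-coding genes against 9.83, a ratio of 5.25 (4.94 to 5.59). Chromosome 7, with 2030 protein-coding genes the richest in genes, has 7.29 peaks per 100 genes, while chromosome 16, with 679, has 57.0. The pull-down candidates, RNAs listed by the authors at a fold of at least 2.5, are spread differently. Non-coding candidate loci were 1.30 times (1.21 to 1.39) as dense on the 5 chromosomes, and mRNA candidate loci 1.06 times (0.934 to 1.20). Neither read coverage nor chromosome copy number of the line was analysed here, and their part in the density was not tested.

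In fixed windows of 5 Mb, a window was counted as dense at 2 peaks per Mb or more. Of 539 windows, 129 were dense, which is 23.9%. On chromosomes 6, 8, 11, 16 and 19 it was 83 of 115 (72.2%), and elsewhere 46 of 424 (10.8%). All 13 windows of chromosome 19 were dense, as were 23 of 27 on chromosome 8 and 21 of 30 on chromosome 6. On chromosome 16 it was 13 of 20, and on chromosome 11 13 of 25. Full windows of the 5 chromosomes held a median of 17 peaks, with quartiles of 8 and 31.75, and 1 of 110 was empty. Full windows elsewhere held a median of 3, with quartiles of 1 and 5, and 64 of 409 were empty. The highest count elsewhere was 19, and 48 windows exceeded it, all of them on the 5 chromosomes.

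**Figure D1:**
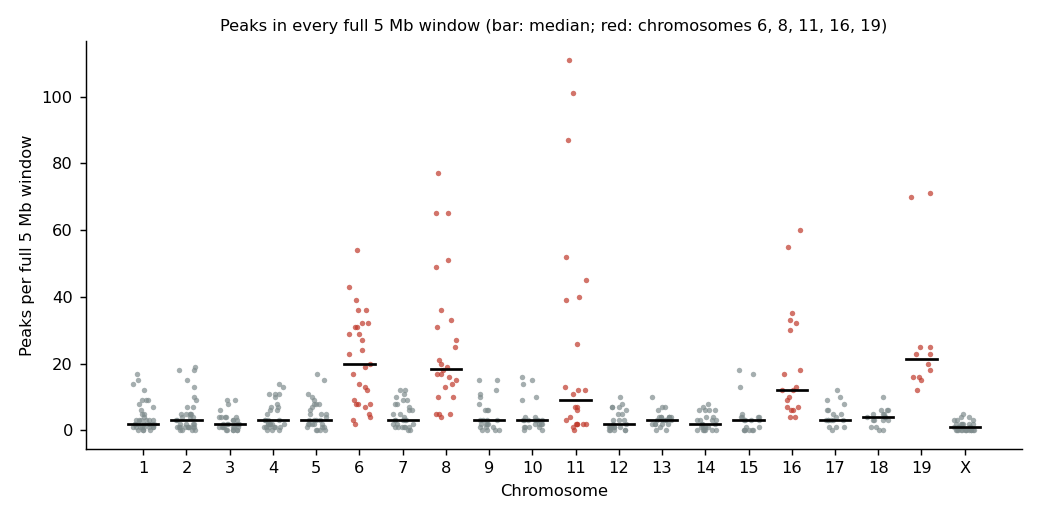
Each point is 1 full 5 Mb window, with its number of peaks on the vertical axis and its chromosome on the horizontal axis, red for chromosomes 6, 8, 11, 16 and 19, and the bar is the chromosome's median. Medians of the red chromosomes lie between 9 on chromosome 11 and 21.5 on chromosome 19, and those of the others between 1 and 4.

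Full windows also differed within each of the 5 chromosomes, for example from 0 to 111 peaks on chromosome 11 and from 12 to 71 on chromosome 19. The 13 windows with 50 peaks or more lay on chromosomes 6, 8, 11, 16 and 19. The fullest was 95 to 100 Mb on chromosome 11 with 111 peaks, followed by 115 to 120 Mb with 101 and 100 to 105 Mb with 87. Chromosome 8 had 77 at 70 to 75 Mb, and 65 in each of the windows starting at 85 and 125 Mb. Chromosome 19 had 71 at 5 to 10 Mb and 70 at 45 to 50 Mb, chromosome 16 had 60 at 90 to 95 Mb, and chromosome 6 had 54 at 30 to 35 Mb. Chromosome 11 also held the only empty one of the 110 full windows, and its first 11 windows held 0 to 7 peaks each.

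Breakpoints were placed with a Poisson change-point fit over 250 kb bins with segments of at least 2 Mb. The fit gave 83 segments in all, of which 41 (49.4%) were dense, again at 2 peaks per Mb or more. On chromosomes 6, 8, 11, 16 and 19 there were 34 dense segments, from 2.02 to 23.6 peaks per Mb, which join into 12 blocks of 396 Mb with 2516 peaks. The remaining 11 segments there covered 165.5 Mb with 150 peaks, from 0 to 1.63 per Mb. They include the first 3.25 Mb of chromosome 8 and the first 3.5 Mb of chromosomes 16 and 19, which reach over unsequenced bases. No peak on the 20 chromosomes starts before base 3035767. There were 40 breakpoints on these 5 chromosomes, 18 of them between dense and sparse. The edges that close the starts of chromosomes 8, 16 and 19 are among the 18. All dense segments, including 7 elsewhere, held 64.9% (63.4 to 66.3) of the 4285 peaks on 18.5% of the length. The segments were cut from the same peaks, so this share and the density of each segment are descriptions. The intervals given for single segments leave out the choice of edges, so whether they overlap decides nothing. The number of segments depends on the setting: with a penalty 2 times larger the fit gave 21 dense segments on the 5 chromosomes, with one 2 times smaller 56, with peaks within 10 kb merged 20, and with scores of at least 40 alone 12.

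**Figure D2:**
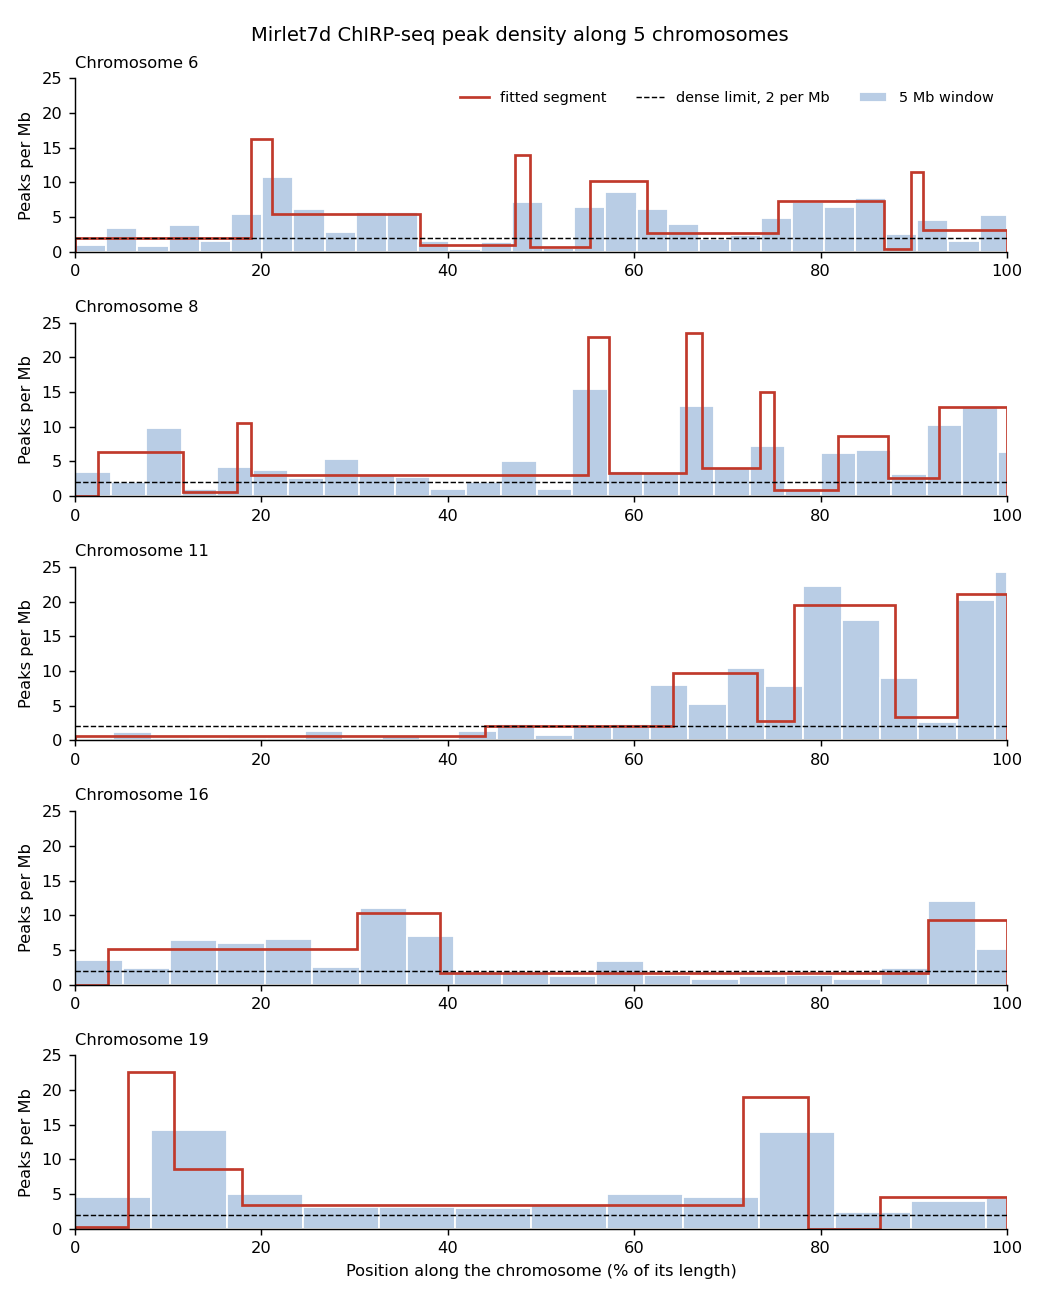
Peaks per Mb (vertical) along chromosomes 6, 8, 11, 16 and 19 (horizontal, as % of chromosome length), with blue bars for 5 Mb windows, a red line for the fitted segments and a dashed line at 2 peaks per Mb. Chromosome 11 is sparse over its first part and reaches 19.5 and 21.2 per Mb in its last, while chromosome 16 is dense at both ends.

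Chromosome 11 had the plainest contrast between its ends. Its first 53.5 Mb held 30 peaks, 0.561 per Mb (0.378 to 0.801), although 322 protein-coding genes lie there by gene order. From 53.5 Mb to the end at 121.6 Mb there was 1 dense block of 595 peaks, 8.74 per Mb. The edge at 53.5 Mb lies between the last peak near Jade2 (chr11:51665203-51666247, mm9) and the first near Rad50 (chr11:53521605-53522249), which encodes a DNA repair protein. The step there is shallow, to 2.12 per Mb (1.59 to 2.78). The density then goes to 9.64 per Mb at 78 Mb, between peaks near Nek8 and Unc119, and back to 2.74 at 89 Mb, between Trim25 and Gm525.

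The steep steps of chromosome 11 follow. At 93.75 Mb, between peaks near Car10 and Spag9 that are 1517 kb apart, the density went from 2.74 to 19.5 per Mb (17.2 to 22.0). The segment from 93.75 to 107 Mb holds 258 peaks nearest to 158 genes, more peaks than any other segment on the 20 chromosomes. Its highest score off multi-copy repeats was 99.54 at the end of the transcript of Prr15l, followed by 88.4 in an intron of B230217C12Rik. Rara, the retinoic acid receptor alpha, had 6 peaks here, with scores from 30.27 to 85.03, all within 26.7 kb. The top promoter scores belonged to Nbr1, an autophagy receptor, with 67.69, and Psmb3, a proteasome subunit, with 65.7. The density went back to 3.38 per Mb at 107 Mb, between peaks near Bptf and Nol11 only 61.4 kb apart.

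The last segment of chromosome 11 began at 115 Mb, between peaks near Gprc5c and Slc9a3r1, and held 139 peaks at 21.2 per Mb (17.8 to 25.0). Its 3 highest scores were 98.44 at the promoter of Lrrc45, 96.91 at that of Mafg, a small MAF transcription factor, and 96.52 in an intron of C1qtnf1. Sept9, which encodes a septin, had 6 peaks, and Bahcc1 had 5. Of its peaks, 15.1% were of the promoter class, against 10.5% over all dense segments.

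Chromosome 8 was dense over most of its length, in 3 blocks: 3.25 to 15.25 Mb, 22.75 to 98.5 Mb and 107.5 Mb to the end. The empty first 3.25 Mb cover the start of the chromosome, whose first bases are unsequenced in mouse assemblies. Its block from 22.75 Mb mixed long stretches of 3.03 to 4 peaks per Mb with short spikes. The spike at 86 to 88.25 Mb, 53 peaks at 23.6 per Mb (17.6 to 30.8), was the densest segment of all, with the spike at 72.25 to 75.25 Mb next, 69 peaks at 23.0 (17.9 to 29.1). These intervals overlap. The stretch of 47.5 Mb before the latter had 144 peaks at 3.03 per Mb (2.56 to 3.57).

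Both spikes of chromosome 8 are rich in genes. The one from 72.25 Mb, which opens between peaks near Zfp869 and Pbx4, has 113 protein-coding genes, and its leading peaks were at the promoter of Ssbp4 (78.1) and in an exon of Use1 (77.1). Lsm4, a component of the U6 small nuclear RNA complex, had 7 peaks there within 15.9 kb, from 31.28 to 58.28, the highest at its promoter. The spike from 86 Mb opens between Scoc and Ndufb7 and closes between Dnaja2 and Itfg1. Its highest score, 107.21, lies near Mir181c at chr8:86710058-86711687, and a further peak near Mir23a, another microRNA gene, scores 70.86. Calr, the endoplasmic reticulum chaperone calreticulin, led its promoters with 64.22. A further spike at 96.5 to 98.5 Mb held 30 peaks at 15.0 per Mb and includes Polr2c, an RNA polymerase II subunit, with 58.56.

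Of the other edges of chromosome 8, those between dense and sparse segments were as follows. Density went from 6.42 to 0.533 per Mb at 15.25 Mb, between peaks near BB014433 and Myom2. It went up to 10.5 at 22.75 Mb, between 6820431F20Rik and Defa6, an intestinal defensin gene, whose peaks are 2997 kb apart. At 98.5 Mb both flanking peaks have Got2, a mitochondrial aminotransferase, as nearest gene, and the density after it was 0.889 per Mb (0.384 to 1.75). At 107.5 Mb, between Fam96b and Ces4a, it returned to 8.71. The last segment, from 121.75 Mb, had 122 peaks at 12.8 per Mb, of which 59.8% were intergenic. Rhou, a small GTPase, was nearest to 10 of them and Irf2bp2 to 8.

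Chromosome 6 alternated, with 4 dense blocks at 0 to 55.25, 70.5 to 73, 82.5 to 129.75 and 134 to 149.4 Mb. Its first 28.25 Mb sat at the limit, with 2.02 peaks per Mb (1.53 to 2.61) over a length that includes unsequenced bases at the start. At 28.25 Mb, between peaks near Grm8 and Gcc1, density went to 16.3 per Mb (12.2 to 21.3) over 3.25 Mb. Mir29b-1, a microRNA gene, was nearest to 8 peaks there, the highest at 62.17. The imprinted gene Mest had 42.99 at its promoter. After 31.5 Mb, an edge with peaks near Podxl on both sides, 129 peaks followed at 5.43 per Mb, among them 15 near Rn4.5s and one of 122.46 at -21688 bp from the TSS of Igf2bp3.

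The shortest block of chromosome 6, from 70.5 to 73 Mb, held 35 peaks at 14.0 per Mb (9.75 to 19.5) between stretches of 0.984 and 0.632. It opens between peaks near Rprl1 and Rpia and closes between Kcmf1 and Suclg1. Sftpb lies in it with 3 peaks, scoring 117.1 at the promoter and 42.48 and 34.25 upstream. Among its other leading peaks were those of Rnf181 (63.33) and of the promoter of St3gal5, a sialyltransferase (60.84). The next block opens at 82.5 Mb between Mir7232 and Pole4, and its first segment, to 91.75 Mb, had 10.3 per Mb. Paip2b (92.56), Wbp1 (81.48) and Slc6a6, the taurine transporter (78.93), led this segment, and Mxd1, a MAX-binding repressor, led its promoters with 76.9. The segment from 112.75 Mb opens within 3.57 kb near Rad18 and includes Cacna1c, a calcium channel subunit, with 80.76. It ended at 129.75 Mb, after a peak near the killer cell lectin receptor gene Klre1, where density went from 7.35 to 0.471 per Mb.

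Chromosome 16 was dense at both ends. From 3.5 to 38.5 Mb there were 226 peaks at 6.46 per Mb, and from 90 Mb to the end 77 at 9.29 (7.33 to 11.6). The 51.5 Mb between them held 84 peaks, 1.63 per Mb (1.30 to 2.02), just under the limit of 2. The first edge of the gap lies between Cd80, a costimulatory ligand, and Igsf11, and the second between Krtap11-1 and Tiam1. Etv5, an ETS factor of alveolar epithelium, led the segment from 3.5 to 29.75 Mb off multi-copy repeats with 89.37, and a peak near Txndc11 on a ribosomal RNA repeat scored 164.36. In the last, Morc3 had 4 peaks, the one at its promoter being the highest of the segment off multi-copy repeats, and Runx1, a transcription factor of blood development, had 9 peaks with scores up to 70.38. This segment also had the largest share of peaks with a score of 40 or more among the 34, 44.2%, against 24.8% over all peaks.

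Chromosome 19 was dense except over its first 3.5 Mb, which include unsequenced bases, and over 4.75 Mb further on. From 3.5 to 6.5 Mb there were 68 peaks at 22.7 per Mb (17.6 to 28.7), with 142 protein-coding genes. Znhit2 (83.29), Ehd1 (70.36) and Drap1 (64.74) led them. Density then went down in steps, to 8.67 at 6.5 Mb, where Polr2g, an RNA polymerase II subunit, led with 74.06 at its promoter, and to 3.42 at 11 Mb. In that long stretch the promoter of Psat1, an enzyme of serine synthesis, scored 94.62. From 44 to 48.25 Mb there were 81 peaks at 19.1 per Mb (15.1 to 23.7) with a median width of 954 bp, the widest median of any segment. Trim8, a RING ubiquitin ligase, had 7 peaks there, with the highest score of the chromosome, 145.55, followed by Nfkb2 and by Cuedc2 with 105.81.

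That segment of chromosome 19 stopped at a gap. Between the peaks near Sorcs3 (chr19:48215991-48216612) and Mir6407 (chr19:53069959-53070842) there was none in 4853 kb. The fit cut out the 4.75 Mb between the bin edges because they hold 0 peaks. The exact interval for 0 peaks, which reaches 0.777 per Mb, leaves this choice out. No pull-down ncRNA or mRNA locus lies in this stretch either. From 53 Mb the density was 4.56 (3.22 to 6.25).

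Outside these chromosomes, 7 dense segments held 263 peaks, between 2.35 and 6.5 per Mb. They lay on chromosomes 1 (88 to 95.75 and 121 to 138.5 Mb), 2 (25 to 33.75 and 152.5 to 168.5 Mb), 10 (21 to 23 and 75.5 to 84.25 Mb) and 15 (73.75 Mb to the end). Per 100 protein-coding genes they had 17.8 peaks, against 60.1 in dense segments of the 5 chromosomes. The rest of the 5 chromosomes had 15.4, and the rest elsewhere 9.04. Genes between segments count with the rest, so 15.4 and 9.04 can be too low, and 15.4 against 17.8 decides no order. The fullest window elsewhere, 165 to 170 Mb on chromosome 2, had 19 peaks with scores of 30.22 to 47.13, and 3 of them were nearest to Snai1, a repressor of epithelial genes. The highest score of the list, 3100, was shared by the peaks near Col19a1 on chromosome 1 and near Esp38 on chromosome 17. Whether 3100 is an upper limit of the score is not known. The next scores were 1327.61 near Gm8579, on a ribosomal RNA repeat of chromosome 6, and 1325.82 near Gad2 on chromosome 2. The 3 peaks near Col19a1, Esp38 and Gad2 lie in sparse segments and are 5130, 6555 and 3189 bp wide. They carry no annotated repeat and so stay in the values without multi-copy repeats. Whether they hold multi-copy sequence was not tested. Chromosome 9 had no peak in 15.9 Mb between Zfp280d and Nt5e, and the longest gap of the list was 21.4 Mb on chromosome X.

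Neighbouring peaks on chromosomes 6, 8, 11, 16 and 19 were 58.1 kb apart at the median (53.1 to 62.7), centre to centre, against 433 kb (390 to 482) on the others. In all dense segments the median was 57.4 kb (52.8 to 61.6), and outside them 513 kb (457 to 583), a distance that the segmentation itself sets in part. The quartiles of the distances on the 5 chromosomes were 17.6 and 175 kb. Sparse segments of the 5 had 402 kb (296 to 684), near the 526 kb (468 to 599) of sparse segments elsewhere.

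**Figure D3:**
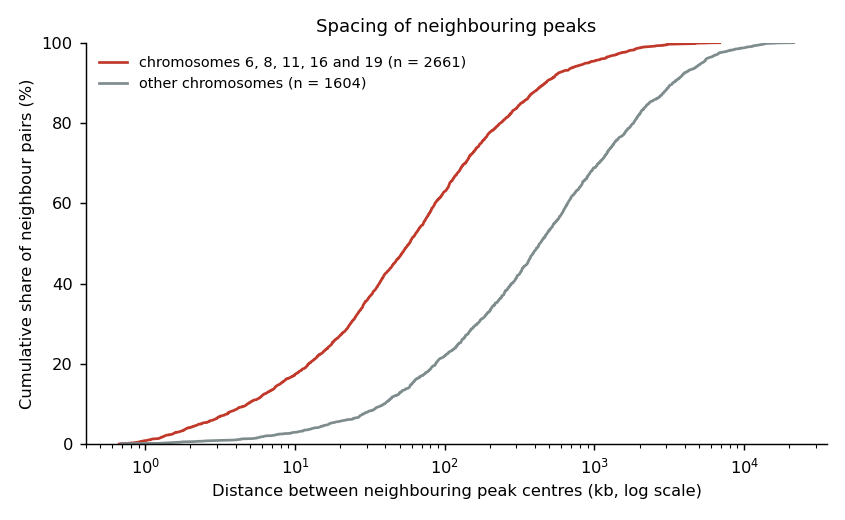
Cumulative share of neighbour pairs (vertical, %) against the distance between peak centres (horizontal, kb, log scale), red for chromosomes 6, 8, 11, 16 and 19 and grey for the others. At 100 kb the red curve has reached 62.9% and the grey one 21.9%.

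Close neighbours were frequent on the 5 chromosomes. Distances under 10 kb made up 17.4% of pairs there and 2.93% elsewhere, and distances under 2 kb 4.13% and 0.561%. The closest pair, 0.669 kb apart, lay in an intron on chromosome 11 with Snx11, a sorting nexin, as the nearest gene, and 41 bp separate the peak ends. Pairs near Slc16a1, a lactate transporter, at 0.691 kb, Wnk4 and Creld1, both at 0.693 kb, and H6pd at 0.696 kb came next. On the 5 chromosomes, the 3 longest gaps were all on chromosome 11: 6.87 Mb from Cobl to Rab1, 5.77 Mb from Sertad2 to 5730522E02Rik and 5.62 Mb from Fabp6 to Mgat1.

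Joining peaks less than 10 kb apart gave 384 groups of 2 or more. Of these, 336 lay on the 5 chromosomes with 30.8% of their peaks, and 48 elsewhere with 6.05%. All 26 groups of 4 or more were on the 5 chromosomes and in dense segments. The largest had 10 peaks over 47 kb on chromosome 8 (chr8:87468443-87515451) around Hook2 and Rnaseh2a, with scores of 31.7 to 72.13, the highest in an intron 154 bp from the TSS of Rnaseh2a. Near Rn4.5s, a multi-copy RNA gene on chromosome 6, 9 and 6 peaks formed 2 groups, and these hold the 4 widest peaks of the list, up to 10776 bp. Reads from such copies cannot be placed with certainty. The 8 peaks near Rhou, the 7 at Lsm4 and the 6 at Rara were the next groups with a named gene, beside 6 near Pdzd7.

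Score values did not enter the fit, but only peaks that reached the lower end of the list, 30.01, were counted. Score and placement are therefore not independent, and contrasts in score between segments are descriptions. How much of them this limit sets was not tested. Over all dense segments, scores were higher than outside. The median was 34.84 (34.62 to 35.13) in dense segments and 33.51 (33.28 to 33.78) outside, and the share with a score of 40 or more was 28.4% (26.7 to 30.1) against 18.3% (16.3 to 20.3). These are the authors' own values per peak, and the lowest in the list, 30.01, shows where it ends: peaks at Ifltd1 and near Smpd2 score 30.01. In dense segments elsewhere the median was 33.94 (33.14 to 34.72), and 17.9% (13.4 to 23) scored 40 or more, close to the values outside. The sparse segments of the 5 had 33.74 (32.94 to 34.53) and 17.3%.

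The contrast between chromosomes was larger among higher scores, up to a point. The density ratio of chromosomes 6, 8, 11, 16 and 19 over the others was 4.75 (4.24 to 5.33) for scores under 32 and 5.18 from 32 to 35. It was 6.38 from 35 to 40, 9.19 (7.73 to 11) from 40 to 50 and 12 (9.25 to 15.6) from 50 to 75. At 75 or more it was 6.07 (3.90 to 9.60), and 7.38 (4.15 to 13.5) without multi-copy repeats. Peaks just above the limit of the list were therefore also unevenly spread.

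**Figure D4:**
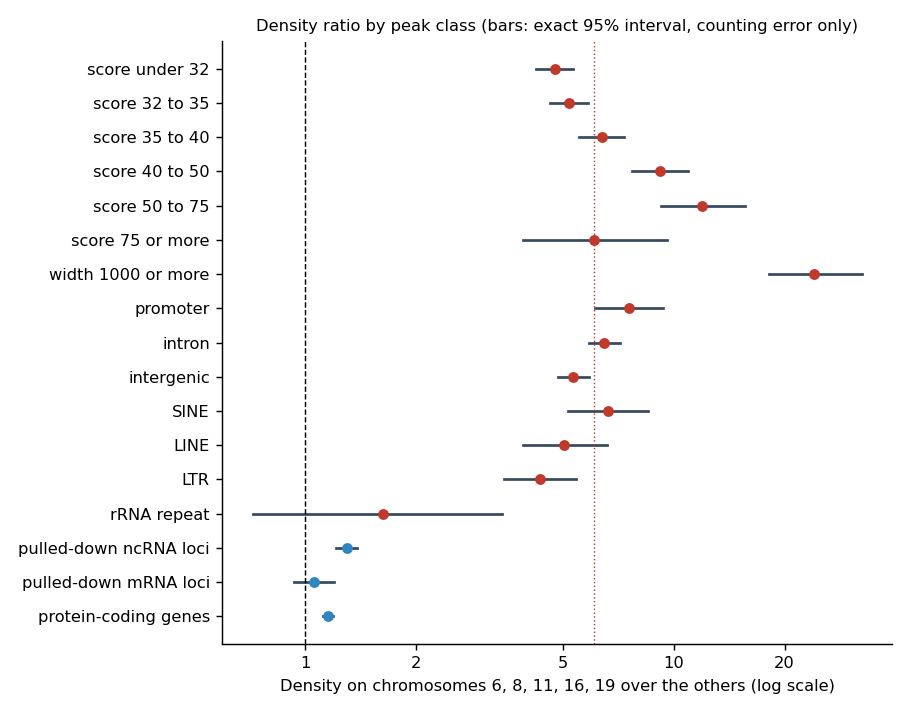
Ratio of the density on chromosomes 6, 8, 11, 16 and 19 to that on the others (horizontal, log scale), by peak class, with exact 95% intervals as bars, red for peaks and blue for pull-down loci and genes. The dotted line is the ratio for all peaks, 6.07, and peaks at least 1000 bp wide stand at 24.0.

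Of the peak classes compared, wide peaks had the largest density ratio. Peaks at least 1000 bp wide numbered 365 on the 5 chromosomes and 56 elsewhere, a density ratio of 24.0 (18.1 to 32.4). The median width was 683 bp (673 to 691) in dense segments and 602 bp (594 to 609) outside, and 13.2% (11.9 to 14.5) against 3.65% (2.76 to 4.73) reached 1000 bp. In dense segments of the 5 it was 14.2% (12.9 to 15.7), and in dense segments elsewhere 3.04% (1.32 to 5.91). Sparse segments of the 5 had 4.67% (1.90 to 9.38).

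Width goes with score, with a Spearman's rho of 0.43 over all 4286 peaks, 0.48 on the 5 chromosomes and 0.29 on the others. Within classes of score the widths still differed, though scores inside a class were not matched. Between 40 and 50 the median was 816 bp (787 to 837) on the 5 and 675 bp (659 to 725) elsewhere, and from 50 to 75 it was 1025 bp (971 to 1071) and 811 bp (742 to 893). Under 32 it was 626 bp (606 to 635) and 565 bp (561 to 568). The share at least 1000 bp wide between 35 and 40 was 9.24% (6.94 to 12) and 0.639% (0.0775 to 2.29). Read coverage was not analysed, and its part in width and score was not tested.

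Peaks in dense segments lay closer to TSSs, but these segments also hold more protein-coding genes per Mb. On the 5 chromosomes dense segments had 4189 genes on 396 Mb and the rest, with the genes between segments, 973 on 165.5 Mb. Elsewhere it was 1475 on 90.1 Mb and 14994 on 1982 Mb. The part of gene density was not tested. In dense segments 10.5% (9.39 to 11.7) of peaks were of the promoter class, against 7.50% (6.22 to 8.95) outside. Within 10 kb of a TSS lay 46.5% (44.7 to 48.4) against 35.5% (33.0 to 37.9). Peaks on annotated repeats showed the opposite, 20.6% (19.1 to 22.2) against 29.2% (26.9 to 31.5). LINE elements, long interspersed repeats common in gene-poor chromatin, gave 4.5% and 7.90%. In the sparse segments of the 5 chromosomes, repeats reached 40.0% (32.1 to 48.3), LINE elements 16% (10.5 to 22.9) and promoters 3.33% (1.09 to 7.61). In dense segments elsewhere, 46.8% lay within 10 kb of a TSS, as in those of the 5 (46.5%), while the shares at least 1000 bp wide were 3.04% and 14.2%.

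The excess on the 5 chromosomes ran through the annotation classes. The density ratio was 7.54 (6.11 to 9.35) for promoters, 6.49 (5.89 to 7.15) for introns and 5.34 (4.84 to 5.88) for intergenic peaks, and 4.73 (4.14 to 5.41) beyond 50 kb of a TSS. Among repeats it was 6.62 for SINE, 5.05 for LINE and 4.34 for LTR elements. Peaks on ribosomal RNA repeats were the exception in size, with 11 on the 5 and 25 elsewhere, a ratio of 1.62 (0.721 to 3.42) whose interval includes 1. On the 5 chromosomes promoter peaks had a median score of 37.86 and a median width of 734 bp, against 34.18 and 653 bp at promoters elsewhere.

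The RNA pull-down gives a measure of position that the peaks did not set. Non-coding candidate loci numbered 2.65 per Mb in dense segments of the 5 chromosomes and 1.06 in their sparse segments. Elsewhere they numbered 3.41 per Mb in dense segments and 1.60 in sparse ones. The dense segments elsewhere thus had more of these loci per Mb and fewer peaks, 2.92 per Mb against 6.35. Candidate mRNA loci gave 0.724 and 0.278 per Mb on the 5, and 1.09 and 0.536 elsewhere. Protein-coding genes per Mb were also higher in dense than in sparse segments, and their part was not tested. Within 10 kb of a non-coding candidate lay 13.2% (12 to 14.6) of the peaks in dense segments and 10.9% (9.36 to 12.6) outside, intervals that overlap.

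Window by window, peaks went with both kinds of candidate loci. For non-coding loci, Pearson's r was 0.66 and Spearman's rho 0.60 over the 110 full windows of the 5 chromosomes, and 0.68 and 0.67 over the 409 others. By chromosome, r was 0.80 on 6, 0.74 on 8, 0.65 on 11, 0.86 on 16 and 0.91 on 19, where rho was 0.47 over 12 windows. For mRNA loci, r was 0.49 and rho 0.52 on the 5 and 0.56 and 0.53 on the others, and on chromosome 8 r was 0.81, above the 0.74 for non-coding loci. These windows share both libraries and a density of genes that varies along the chromosome, whose part was not tested, so the values are descriptions.

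**Figure D5:**
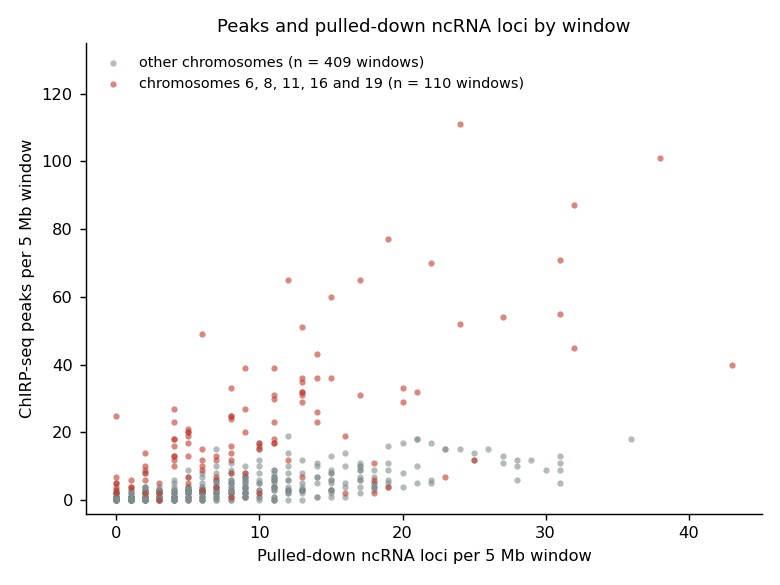
Each point is a full 5 Mb window, with its pulled-down ncRNA loci (horizontal) and its ChIRP-seq peaks (vertical), red for the 110 windows of chromosomes 6, 8, 11, 16 and 19 and grey for the 409 others. No grey window exceeds 19 peaks, also where ncRNA loci are many.

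Genes nearest to a peak followed the chromosomes. Of 21900 protein-coding genes, 12.8% were nearest to at least 1 peak, 29.7% on the 5 chromosomes and 7.58% elsewhere. Among 30 lung epithelial genes, 9 were: 5 of 7 on the 5 chromosomes and 4 of 23 elsewhere. Sftpb and Etv5 had the highest scores, and Sox9, a factor of lung epithelial progenitors, had a peak of 40.16. Scgb1a1, the club cell secretoglobin, was nearest to 4 peaks of 30.21 to 38.11, and Cdh1, E-cadherin, to 1 of 31.75. Elsewhere, Nkx2-1, the lung lineage factor, had 35.38 at its promoter, and Hopx, Krt18 and Foxa2 were the others.

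Known let-7 targets gave 8 of 30: 6 of 11 on the 5 chromosomes and 2 of 19 elsewhere. Igf2bp3, an RNA-binding protein of fetal tissue, had 122.46, and Insr, the insulin receptor, 48.59 on an LTR element. Ccnd2 had 30.76 and Fas 30.33, near the end of the list, and Bach1 had 2 peaks in the sparse middle of chromosome 16. Ccnd1 on chromosome 7, encoding cyclin D1, had 3 peaks up to 55.94. Among the let-7 loci 1 of 12 was nearest to a peak, Mirlet7i on chromosome 10 with 33.9.

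WNT pathway genes gave 11 of 33: 8 of 19 on the 5 chromosomes and 3 of 14 elsewhere. Tcf7l2, a transcription factor of the pathway, had 77.23, and Rnf43, a ligase that removes WNT receptors, 60.43. Axin2, a scaffold of the destruction complex, had 428.9 on a ribosomal RNA repeat 91609 bp from its TSS. The ligand Wnt5b had 3 peaks of 33.01 to 40.64, and Wnt7a had 45.83. Of 27 genes for C1D, the RNA exosome and the Polycomb complex PRC2, 4 were nearest to a peak, all 4 of them among the 8 on the 5 chromosomes. They are Exosc6, an exosome subunit, with 49.46, the methyltransferases Ezh1 with 47.92 and Ezh2 with 30.14, and Aebp2 with 33.36. The members on the 5 chromosomes are few in each list, and these counts are given without a test.

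Clustered gene families lay on both sides of the 12.8% of all protein-coding genes that were nearest to a peak. Many of these families lie wholly or mainly on the 5 chromosomes, where the share of all protein-coding genes was 29.7%. Olfactory receptor genes (Olfr) had a nearest peak at 11 of 1428, of which 10 lie on the 5 chromosomes, and vomeronasal receptor genes (Vmn) at 9 of 645. Defensin genes of the Defb family had none among 43. Killer cell lectin receptor genes (Klr), all on the 5 chromosomes, had 4 of 33 (12.1%), and keratin-associated protein genes (Krtap) 2 of 56. Hoxa had 1 of 14, Ms4a 1 of 21, Ces 2 of 20 and Ccl 1 of 29. Shares above 12.8% were found for keratin genes (Krt) with 9 of 55 (16.4%) and cytochrome P450 genes of the Cyp2c group with 4 of 20. Solute carriers of the Slc22a group had 4 of 26 (15.4%) and Hoxb genes 2 of 12 (16.7%). On the 5 chromosomes alone these were 7 of 27 Krt, 4 of 19 Cyp2c, 2 of 13 Slc22a and 2 of 12 Hoxb genes. Each of these shares is below the 29.7% of all protein-coding genes there. So are those of Klr, Hoxa, Ms4a and Ces, whose genes all lie on the 5 chromosomes. Both metallothionein genes, Mt1 and Mt2, had a peak.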

How the data were processed

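Peaks carry a score that the authors deposited, whose lowest value was 30.01. Its scale is not given in the sources used here. The submitters' processing notes list, for the ChIRP library, the build mm9 and the tools HOMER, MACS, bedtools, SAMtools, Bowtie2 and FastQC, with neither role nor version. The deposited annotation gives class, distance to TSS and nearest gene. The pull-down lists give a deposited fold (a ratio of pull-down to input), at least 2.5, and only their positions, merged into loci, were used.

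Coordinates are those of mm9, counted from 1, and peaks were placed by their centre. Chromosome length is the largest coordinate in the files. Unsequenced bases at chromosome starts were not taken out of any length. Change points minimised a Poisson deviance with a penalty of 3 times the log of the number of bins. The code was tested on simulated data with peaks placed independently within long segments. Clustered peaks and short segments were not simulated. Intervals are exact Poisson, Clopper-Pearson or order-statistic intervals at 95%. A RefSeq table of GRCm38.p6 gave gene names, order and counts only, so genes in a segment are approximate. For the sets of sparse segments, genes are the chromosome totals less those counted in dense segments. Multi-copy repeats are peaks whose deposited annotation names a ribosomal, simple, satellite or low-complexity repeat, and those near Rn4.5s. Multi-copy sequence without such an annotation is not removed. The rule for named genes took, per dense segment, the 3 top scores off multi-copy repeats, the 2 top promoters, genes flanking breakpoints and the 2 with most peaks, then list members, extreme pairs, gaps and widths. Denser segments are printed in more detail. Some genes that the rule names are not reported here. The members and lists were chosen with earlier results of these data known. Computation used Python 3.11.15, numpy 2.4.6, pandas 2.3.3, scipy 1.17.1 and matplotlib 3.10.9.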

Additional observations from a re-analysis of the deposited data

How the results depend on the processing

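No paired analysis was possible because each group holds 1 sample. Of 78 alternative values for 18 results, 42 stayed near the value given and 36 moved. A count was called near within a factor of 1.5, and a share or median when it lay inside the interval of the value given. With scores of at least 40 alone (1064 peaks), the 5 chromosomes had 12 dense segments, dense segments held 44.1% of the peaks entering, 15 of 40 breakpoints recurred within 500 kb and 28 windows were dense. With the limit lowered in proportion to the peaks kept, an alternative chosen after seeing the data, these were 21 segments, 65.8% of peaks and 101 windows. Merging peaks within 10 kb gave 20 segments, 58.9% of regions and 24 recurring breakpoints. A penalty 2 times larger gave 21 segments, 60.2% and 22 breakpoints, and one 2 times smaller 56 segments and 69.0%, with 34 breakpoints recurring. A dense limit of 3 peaks per Mb gave 57.6% and one of 1.5 gave 72.5%. These limits gave 86 and 160 dense windows against 129, which still count as near. There were 338 dense windows of 2 Mb (25.5% of them) and 62 of 10 Mb (22.5%). Such counts move because the number of windows depends on their size, and the share of 5 Mb windows was 23.9%.

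With scores of at least 40, the median spacing was 142 kb in dense segments and 4183 kb outside, median width 892 and 742 bp, promoter share 15.5% and 10.5%, and repeat share 15.5% and 31.6%. In dense segments the share within 10 kb of a TSS was then 52.6% and that within 10 kb of an ncRNA candidate 16%. Merged peaks in dense segments were 82.7 kb apart. With dense windows in place of segments, median width was 672 bp inside and 32.9% of peaks outside lay within 10 kb of a TSS. Without multi-copy repeats the repeat share was 18.9% inside and 26.2% outside. At 1 kb in place of 10 kb, the TSS share was 15.3% and 11% and the ncRNA share 4.82% and 4.52%. In each of these pairs the direction between dense segments and the rest was kept. The depth behind each peak is unknown, and 28.5% of peaks score under 32.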
